A study of Sus scrofa with 5 samples.

Results

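The keratins described here are KRT7, KRT8, KRT18, KRT19, KRT5, KRT14, KRT17, KRT23 and KRT80, 9 listed genes out of 30029 genes counted in porcine blastoids and out of 61 keratin loci in the pig annotation. Porcine blastoids are blastocyst-like structures that pESCs, pig embryonic stem cells, form in suspension culture. Blastoids grown in iBlastoid medium were taken on day 6, selected by hand for a cavity and both compartments, and dissociated for droplet single-cell RNA-seq in 2 libraries. The pESCs themselves, kept in 4FIXY medium on mouse feeder cells according to the methods, were measured by bulk RNA-seq in 3 libraries. The study gives parthenogenetic blastocysts as the source of its pESCs. The bulk columns are named IVFP25, PA_4P7 and PAP25, could not be tied to the 3 labelled pESC samples, and the first name begins with IVF. Each material is a single condition. Nothing in the labels says whether the blastoid libraries came from separate cultures, so the tests below measure only the spread between 2 libraries, which may be technical.

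Keratins build intermediate filaments from pairs of a type I chain (here KRT14, KRT17, KRT18, KRT19 and KRT23) and a type II chain (here KRT5, KRT7, KRT8 and KRT80). KRT8 and KRT18 are the keratins of simple epithelia and appear first in the mammalian embryo, where the trophectoderm carries them, and KRT7 and KRT19 join them in many simple epithelia, trophoblast and amnion included. KRT5 and KRT14 form the filaments of basal cells in stratified epithelia, and TP63 is the transcription factor known for that basal program.

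In the Sscrofa11.1 annotation (susScr11, the build of the files) the type II genes and KRT18 lie together on chromosome 5 and the other type I genes on chromosome 12. KRT8 spans chr5:18172423-18180277 on the minus strand and its partner KRT18 spans chr5:18217686-18221432 on the plus strand, the only type I gene of the list in the type II cluster. KRT7 (chr5:17553192-17570582, plus) is annotated as a long non-coding RNA, and no gene of the list overlaps another gene. KRT14 and KRT17 have no row under their own symbols and were matched by RefSeq product name to LOC110255312 (chr12:21074965-21079393, plus) and LOC100737113 (chr12:21024395-21029875, plus). Because KRT8 and KRT18 moved together in each comparison below but that of COL3A1 with POU5F1 cells, the 250 bases before their annotated starts are shown from the RefSeq genome, with matches to any of 7 motifs in capitals, TATAAA and GGAATG (the core that TEAD factors recognize, read on both strands) for KRT8 and GGGCGG (SP and KLF factors) for KRT18.
KRT8, chr5:18180278-18180527, minus: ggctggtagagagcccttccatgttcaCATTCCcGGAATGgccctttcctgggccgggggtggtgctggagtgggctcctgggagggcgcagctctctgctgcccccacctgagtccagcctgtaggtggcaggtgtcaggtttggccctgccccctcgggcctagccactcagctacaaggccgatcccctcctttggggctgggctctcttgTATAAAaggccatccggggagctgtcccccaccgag
KRT18, chr5:18217436-18217685, plus: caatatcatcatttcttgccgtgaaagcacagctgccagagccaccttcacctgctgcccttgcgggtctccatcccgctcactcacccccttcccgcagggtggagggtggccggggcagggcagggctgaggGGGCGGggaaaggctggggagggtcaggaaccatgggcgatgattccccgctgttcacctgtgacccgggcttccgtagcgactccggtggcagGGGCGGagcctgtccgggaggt
The sequences share none of these matches. KRT8 has TATAAA with its first base at -36 and 2 matches of GGAATG, and KRT18 has neither and 2 matches of GGGCGG. In windows from 250 bases before to 50 after the start of 19556 protein-coding genes, TATAAA was found in 10.9%, GGAATG in 11.8% and GGGCGG in 50.6%, so GGGCGG is common. The other motifs searched, also on both strands, were those of TFAP2 (spelled GCCNNNGGC, found in 26.2% of the windows), of grainyhead factors (spelled AACCNGTT, found in 1.59%), of AP-1 (spelled TGANTCA, found in 6.08%) and of GATA factors (spelled AGATAA, found in 9.17%). Neither KRT8 nor KRT18 held any of these. The 2 GGAATG matches of KRT8 lie on opposite strands next to each other. KRT7 held none of the 7 motifs in its window, of which 77.3% is repeat sequence. A match is a description of the letters and was not tied to binding.

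A barcode counted as a cell from 11223 UMIs on in library 1 and from 9805 UMIs on in library 2. This gave 7369 and 8175 cells, with 9 barcodes found in both libraries. A cell belonged to the gate of POU5F1 (the pluripotency factor), CRABP1 (a retinoic acid binding protein), GABRP (a GABA receptor subunit that marks amnion in primates), TP63 or COL3A1 (a fibrillar collagen) when it held at least 3 UMIs of that gene at 2 times its share in empty droplets, barcodes of 10 to 100 UMIs, and passed no other gate. The gates held 837 and 966 POU5F1 cells, 228 and 345 CRABP1 cells, 767 and 746 GABRP cells, 1141 and 1142 TP63 cells, and 572 and 487 COL3A1 cells in libraries 1 and 2, with median depths from 20037 to 38194 UMIs per cell. The largest group, 2909 and 3638 cells, passed no gate, so the gates do not cover the blastoids as a whole. Cells in several gates were set aside, most of them in both the GABRP and the TP63 gate (703 and 673 cells), so GABRP cells below are those that did not pass the TP63 gate. TP63 was still at 37.0 and 30.5 CPM in them, against 5.70 and 3.14 CPM in POU5F1 cells and 282 and 231 CPM in TP63 cells. Some marker lists contain a gate gene (POU5F1, GABRP, TP63 and COL3A1), which a gate raises by itself. The 7 pluripotent markers summed to 985 and 1346 CPM (the UMIs of a gene scaled to a common total per library and gate) in POU5F1 cells against at most 304 CPM elsewhere, the 7 neural markers to 910 and 924 CPM in CRABP1 cells, and the 7 mesenchyme markers to 4028 and 3783 CPM in COL3A1 cells. The 8 trophectoderm markers summed to 829 and 800 CPM in GABRP cells and to 837 and 776 CPM in COL3A1 cells. The COL3A1 sum was mostly HAND1, at 699 and 644 CPM there against 294 and 256 CPM in GABRP cells. GATA3 was at 185 and 181 CPM in GABRP cells against 53.1 and 48.6 CPM in COL3A1 cells, and ELF5 at 165 and 174 CPM against 19.0 and 16.2 CPM. GATA3, ELF5, PTGS2 and TEAD4 were highest in GABRP cells among the gates. GATA2 was highest in TP63 cells, at 72.6 and 71.2 CPM against 59.3 and 56.9 CPM in GABRP cells. TFAP2C was highest in POU5F1 cells, at 69.4 and 53.0 CPM against 36.8 CPM in GABRP cells of both libraries. The 7 amnion markers, GABRP among them, summed to 1412 and 1436 CPM in GABRP cells against at most 602 CPM in the other gates. GABRP itself gave 837 and 877 CPM of the former, so most of this gap is the gate gene. Of the other members VTCN1 and ISL1 were highest in GABRP cells. TFAP2A was highest in TP63 cells, TFAP2B and TBX3 in CRABP1 cells and BAMBI in COL3A1 cells. CDX2 was at 0.986 and 1.44 CPM in GABRP cells and highest in COL3A1 cells, at 3.97 and 6.61 CPM. The 7 surface ectoderm markers, TP63 among them, summed to 926 and 843 CPM in TP63 cells and to 750 and 738 CPM in GABRP cells. In the remaining gates that sum was at most 410 CPM. TP63 itself gave 282 and 231 CPM of the sums in TP63 cells, more than their gap to GABRP cells. Of the other members TFAP2A was highest in TP63 cells, WNT6 in GABRP cells, GRHL3 and TFAP2B in CRABP1 cells and DLX5 in POU5F1 cells. DLX3 was highest in TP63 cells of library 1 and in GABRP cells of library 2. The 7 hypoblast markers summed to 404 and 416 CPM in COL3A1 cells, with GATA6 at 190 and 184 CPM and GATA4 at 80.4 and 73.0 CPM, and to 326 and 328 CPM in TP63 cells, most of it APOA1 at 311 and 320 CPM. SOX17 and FOXA2 of that list stayed under 1 CPM in every gate.

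KRT8 and KRT18, the simple-epithelium pair, were highest in GABRP cells. KRT8 was at 8216 and 8433 CPM in GABRP cells of libraries 1 and 2, at 4700 and 4401 CPM in TP63 cells, at 3896 and 3313 CPM in POU5F1 cells, at 3565 and 3392 CPM in COL3A1 cells and at 1909 and 2083 CPM in CRABP1 cells. GABRP cells were above and CRABP1 cells below all others in both libraries, while COL3A1 and POU5F1 cells overlapped. KRT18 was at 7515 and 8167 CPM in GABRP cells, at 3567 and 3781 CPM in TP63 cells, at 2993 and 2751 CPM in POU5F1 cells, at 1598 and 1634 CPM in COL3A1 cells and at 1106 and 1411 CPM in CRABP1 cells. The 5 gates did not overlap for KRT18, and COL3A1 cells stood well under POU5F1 cells, unlike for KRT8.

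**Figure D1:**
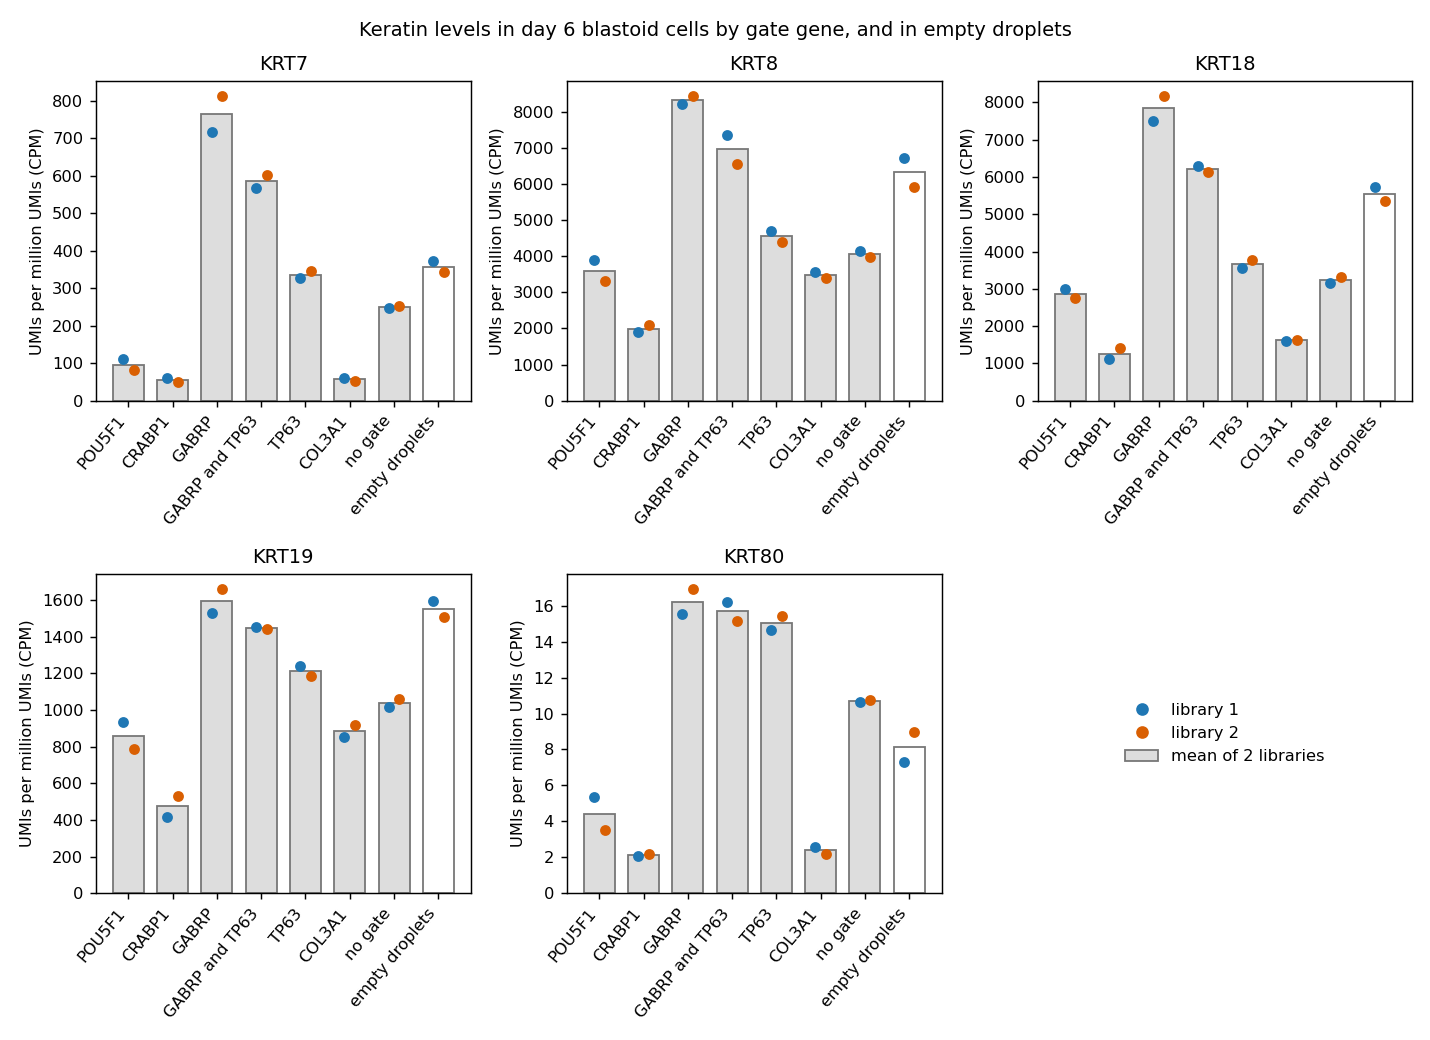
Levels of 5 keratins in CPM (scaled UMIs, axes from 0) in blastoid cells by gate, in cells of both the GABRP and TP63 gates, in cells of no gate and in empty droplets of 10 to 100 UMIs. Points are the 2 libraries and bars their mean. GABRP cells are highest for each keratin among the 5 gates, with KRT80 nearly level between GABRP (15.5 and 16.9 CPM) and TP63 cells (14.6 and 15.4 CPM), and the empty droplets sit above every gate but GABRP for KRT8 and KRT18.

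KRT7, the type II keratin of ducts and trophoblast, varied most between gates. It was at 716 and 812 CPM in GABRP cells, at 328 and 345 CPM in TP63 cells, at 112 and 80.6 CPM in POU5F1 cells, at 61.4 and 51.8 CPM in COL3A1 cells and at 59.5 and 49.1 CPM in CRABP1 cells. The last 2 gates overlapped and the other gates did not, with means of 764 ± 67.8 CPM in GABRP cells and 96.2 ± 22.1 CPM in POU5F1 cells (SD, n = 2). KRT19, a type I keratin that lacks the usual tail domain, was at 1530 and 1660 CPM in GABRP cells, at 1238 and 1182 CPM in TP63 cells, at 932 and 788 CPM in POU5F1 cells, at 854 and 915 CPM in COL3A1 cells and at 416 and 533 CPM in CRABP1 cells. Its range was the narrowest of the abundant keratins, with POU5F1 and COL3A1 cells overlapping. KRT80, a type II keratin found at cell margins and desmosomes, was low throughout, at 15.5 and 16.9 CPM in GABRP cells, 14.6 and 15.4 CPM in TP63 cells, 5.33 and 3.54 CPM in POU5F1 cells, 2.58 and 2.2 CPM in COL3A1 cells and 2.1 and 2.2 CPM in CRABP1 cells. GABRP and TP63 cells formed the high pair and COL3A1 and CRABP1 cells the low pair. Cells of no gate lay between POU5F1 and TP63 cells for each of these keratins. Their means were 4072 CPM for KRT8, 3236 CPM for KRT18, 1037 CPM for KRT19, 251 CPM for KRT7 and 10.7 CPM for KRT80.

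All 5 tested keratins were higher in GABRP than in POU5F1 cells by the quasi-likelihood test of edgeR on the summed counts, where 27.8% of the 18427 genes tested were higher and 55.1% differed in either direction. KRT7 differed most, with a log2 fold change of 3.21 (SE 0.14, 9.24-fold, edgeR adjusted p = 7.41e-09). That value ran from 2.69 with cells of several gates kept to 3.91 with the gate at 4 times the empty droplets. KRT80 followed with 2.08 (SE 0.15, edgeR adjusted p = 4.02e-07) and KRT18 with 1.66 (SE 0.11, edgeR adjusted p = 1.31e-07). KRT8 rose by 1.42 (SE 0.07, 2.68-fold, edgeR adjusted p = 2.46e-08) and KRT19 by 1.11 (SE 0.11, edgeR adjusted p = 5.14e-06). KRT5, KRT14, KRT17 and KRT23 did not pass the filter on low counts and were not tested.

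The same 5 keratins were also higher in TP63 than in POU5F1 cells, beside 24.9% of genes higher, 25.3% lower and 50.2% called, but the epithelial pair much less so. KRT7 had a log2 fold change of 1.87 (SE 0.13, edgeR adjusted p = 6.08e-07) and KRT80 of 1.82 (SE 0.15, edgeR adjusted p = 1.89e-06). KRT8 differed by 0.39 (SE 0.07, edgeR adjusted p = 0.000674), KRT18 by 0.41 (SE 0.10, edgeR adjusted p = 0.00553) and KRT19 by 0.55 (SE 0.11, edgeR adjusted p = 0.00141). In the direct comparison of GABRP with TP63 cells, 4 of the 5 were higher in GABRP cells, where 16.3% of genes were higher, 14.9% lower and 31.2% called. The log2 fold changes were 1.34 for KRT7 (SE 0.13, edgeR adjusted p = 1.28e-05), 1.25 for KRT18 (SE 0.10, edgeR adjusted p = 4.67e-06), 1.03 for KRT8 (SE 0.07, edgeR adjusted p = 1.15e-06) and 0.56 for KRT19 (SE 0.11, edgeR adjusted p = 0.00248). KRT80 was the exception, with 0.27 (SE 0.14, edgeR adjusted p = 0.168). With the cells of several gates kept in each of their gates, 2180 in place of 5750 genes were called between GABRP and TP63 cells and KRT19 lost its call (0.32, edgeR adjusted p = 0.0958, the highest of a range that starts at 5.39e-06). KRT7, KRT18 and KRT8 kept their calls there at smaller values of 0.75, 0.71 and 0.59. In that setting the cells of both gates count in both sums, which lowers differences between the sums by construction.

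**Figure D2:**
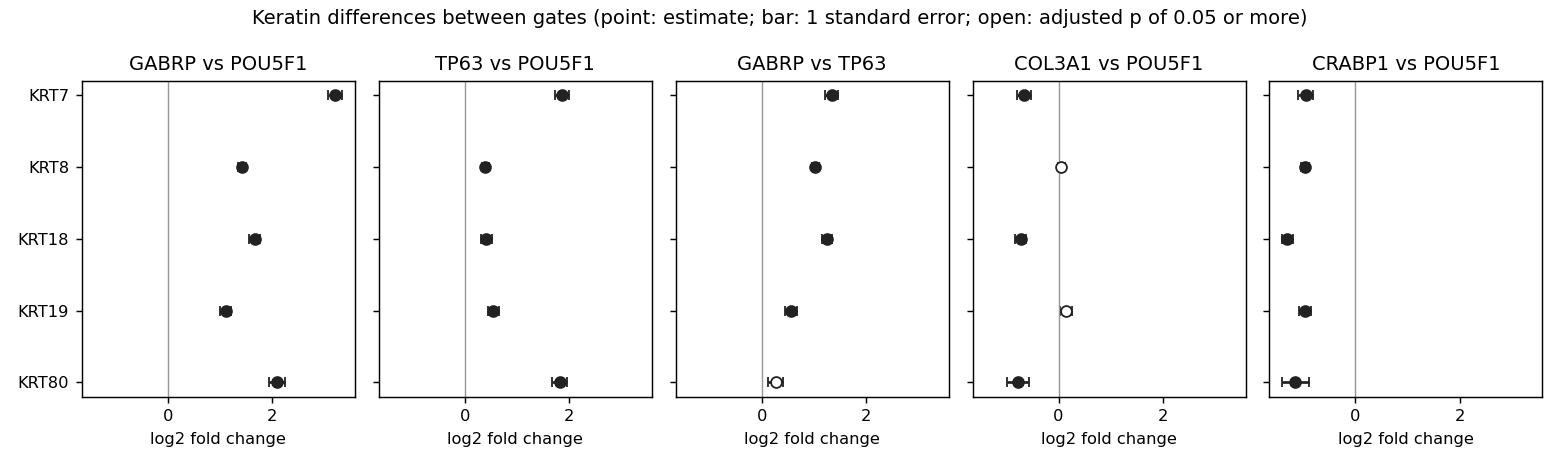
Log2 fold changes (x axis, same scale in each panel) of 5 keratins (y axis) between gates, from the edgeR fit of 12 sums. Points are estimates, bars 1 standard error, and open points have an edgeR adjusted p of 0.05 or more. The points lie right of 0 for GABRP and TP63 against POU5F1 cells and left of 0 for CRABP1 against POU5F1 cells, and in COL3A1 cells KRT8 (0.05) and KRT19 (0.14) are open and sit at about 0.

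In CRABP1 cells all 5 keratins were lower than in POU5F1 cells, where 23.0% of genes were lower and 43.7% were called. KRT18 fell by 1.30 on the log2 scale (SE 0.11, edgeR adjusted p = 1.82e-06) and KRT8 by 0.97 (SE 0.07, edgeR adjusted p = 9.76e-07). KRT19 had a log2 fold change of -0.97 (SE 0.11, edgeR adjusted p = 3.11e-05), KRT7 of -0.95 (SE 0.15, edgeR adjusted p = 0.000251) and KRT80 of -1.15 (SE 0.26, edgeR adjusted p = 0.00359). The calls of KRT7 and KRT80 ended when a gate asked for 4 times the share in empty droplets, with -0.34 for KRT7 (edgeR adjusted p = 0.19, from a low of 2.59e-09 over the alternatives) and -0.50 for KRT80 (edgeR adjusted p = 0.221, from a low of 4.15e-05). With the cells of highest doublet score left out both values were larger, at -1.60 for KRT7 and -1.72 for KRT80.

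COL3A1 cells kept KRT8 and KRT19 near the level of POU5F1 cells while KRT18 was lower, in a comparison where 26.6% of genes were lower and 53.4% were called. KRT8 differed by 0.05 (SE 0.07, edgeR adjusted p = 0.564) and KRT19 by 0.14 (SE 0.11, edgeR adjusted p = 0.297), neither of them called. KRT8 was called with cells of several gates kept (0.26, edgeR adjusted p = 0.0235, up to 0.893 over the alternatives) and KRT19 with the gate at 4 times the empty droplets (0.29, edgeR adjusted p = 0.0257, up to 0.788), and both turned to just under 0 without library 2 (-0.012 and -0.010). KRT18 fell by 0.73 on the log2 scale (SE 0.10, edgeR adjusted p = 8.98e-05). KRT7 had -0.66 (SE 0.14, edgeR adjusted p = 0.00158) and KRT80 -0.77 (SE 0.21, edgeR adjusted p = 0.00926). The KRT7 value moved to 0.020 with the gate at 4 times the empty droplets (edgeR adjusted p = 0.939) and to 0.58 with cells of several gates kept (edgeR adjusted p = 0.0053), so its direction rests on the gate. Over the alternatives its adjusted p ran from 1.85e-08 to 0.939. With cells of several gates kept, KRT18 also lost its call (-0.08, edgeR adjusted p = 0.538, from a low of 2.02e-10), as did KRT80 (0.15, edgeR adjusted p = 0.468, from a low of 8.41e-06), which had -0.17 with the gate at 4 times (edgeR adjusted p = 0.605). Doublet scores among the highest were held by 9.62% and 9.65% of COL3A1 cells against 5.89% and 6.54% of all cells, and leaving such cells out kept the calls but moved KRT7 to -1.52 and KRT80 to -1.78 in COL3A1 against POU5F1 cells. With the gate at 1 times the empty droplets the values were -1.41 and -1.49.

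The balance of the pair KRT8 and KRT18 differed between the gates. The ratio of KRT8 to KRT18 UMIs, which compares groups and is not a ratio of transcripts, was 2.23 and 2.08 in COL3A1 cells, 1.73 and 1.48 in CRABP1 cells, 1.30 and 1.20 in POU5F1 cells, 1.32 and 1.16 in TP63 cells and 1.09 and 1.03 in GABRP cells. COL3A1 cells stood above and GABRP cells below all other gates, and POU5F1 and TP63 cells overlapped. KRT8 over KRT7 ran from 11.5 and 10.4 in GABRP cells to 58.1 and 65.5 in COL3A1 cells. With 2 libraries per gate these ratios are given without a test.

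**Figure D3:**
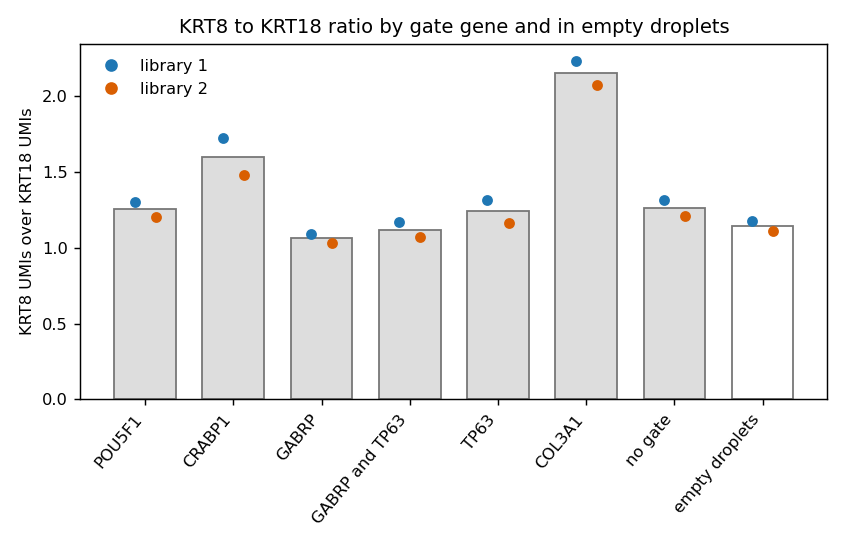
KRT8 UMIs over KRT18 UMIs (y axis, from 0) by gate, in cells of no gate and in empty droplets of 10 to 100 UMIs. Points are the 2 libraries and bars their mean. COL3A1 cells (2.23 and 2.08) and CRABP1 cells (1.73 and 1.48) lie above the empty droplets (1.17 and 1.11), and GABRP cells (1.09 and 1.03) lie below them.

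Free RNA is rich in keratins in these libraries. In empty droplets KRT8 was at 6727 and 5932 CPM, KRT18 at 5734 and 5353 CPM, KRT19 at 1592 and 1505 CPM and KRT7 at 372 and 343 CPM, above every gate but GABRP for KRT8 and KRT18. KRT19 was above GABRP cells in library 1 (1530 CPM) and below them in library 2 (1660 CPM). In empty droplets of up to 500 UMIs, taken above 100, all of these keratins were lower, and KRT18 at 3590 CPM in library 2 was then below the 3781 CPM of TP63 cells, while KRT7 was at 226 and 218 CPM. KRT7, KRT8, KRT18 and KRT19 together held 1.44% and 1.31% of the UMIs of empty droplets, against 1.80% and 1.91% in GABRP cells, 0.793% and 0.693% in POU5F1 cells and 0.349% and 0.408% in CRABP1 cells. Some cells held far less keratin than that. CRABP1 cells with SCRG1, a gene of neural crest and cartilage (32 and 28 cells), had KRT8 at 316 and 450 CPM, which is 4.69% and 7.58% of the level in empty droplets. Genes of other gates give further values in the same gates. In CRABP1 cells MYL7, a cardiac myosin light chain, was at 8.70% and 3.66% of its level in empty droplets, TAC3, a neuropeptide gene, at 10.8% and 13.4%, CYP17A1, a steroid hydroxylase, at 17.4% and 6.48%, and ACTC1, cardiac actin, at 18.1% and 13.6%. In COL3A1 cells CYP17A1 was at 14.8% and 12.1% and TAC3 at 41.8% and 60.6%. KRT8 was at 28.4% and 35.1% of the empty level in CRABP1 cells and at 53.0% and 57.2% in COL3A1 cells. In CRABP1 cells these values lie above those of the other genes, while in COL3A1 cells TAC3 of library 2 lies above KRT8. KRT7 was at 16.0% and 14.3% in CRABP1 cells and at 16.5% and 15.1% in COL3A1 cells, within the range of these genes but for library 2 of the CRABP1 cells, where it was above them. KRT18 was at 19.3% and 26.3% in CRABP1 cells, above these genes, and at 27.9% and 30.5% in COL3A1 cells, below TAC3 in both libraries. In POU5F1 cells, the reference of 4 comparisons, KRT7 was at 30.0% and 23.5%, beside CYP17A1 at 20.3% and 13.6%, MYL7 at 15.1% and 9.35%, TAC3 at 11% and 11.9% and ACTC1 at 48.9% and 89.1%. The part of free RNA in the keratin counts of the gates was not tested.

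The share of cells with a KRT7 UMI was ordered like the level except in the lowest gates, where COL3A1 cells had the smaller share and CRABP1 cells the slightly lower level. After each cell was thinned to 9500 UMIs, KRT7 was seen in 97.3% and 97.6% of GABRP cells, 87.4% and 89.8% of TP63 cells, 50.2% and 40.9% of POU5F1 cells, 21.1% and 21.2% of CRABP1 cells and 16.6% and 19.9% of COL3A1 cells. Without thinning the values were 99.3% and 99.5%, 97.6% and 98.2%, 80.8% and 71.0%, 36.4% and 36.5%, and 29.4% and 32.4% in the same order, at median depths of 38194 and 34427 UMIs in POU5F1 cells against 22367 and 20037 UMIs in COL3A1 cells. COL3A1 and CRABP1 cells had the lowest shares, and how much of them is background from free RNA was not tested. KRT8 was seen in at least 96.5% of thinned cells in every gate, and KRT18 in at least 89.0%. KRT19 was seen in 68.9% and 70.7% of CRABP1 cells, 92.0% and 91.4% of COL3A1 cells and at least 98.4% of the other gates. KRT80 was seen in 12% and 9.92% of thinned GABRP cells, 12% in both libraries of TP63 cells and 5.50% and 2.69% of POU5F1 cells.

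Cells within a gate were not alike. KRT7 was above its level in empty droplets in 77.1% and 81.1% of GABRP cells, and KRT8 in 63.9% and 73.1%. GABRP cells that also held TAC3 (255 and 235 cells) had KRT7 at 876 and 1084 CPM against 634 and 695 CPM in those without it, and KRT80 the other way, at 11.5 and 10.2 CPM against 17.6 and 19.9 CPM. KRT8 and KRT18 were also higher with TAC3, KRT8 at 9110 and 9627 CPM against 7757 and 7916 CPM. KRT18 was at 8617 and 9332 CPM against 6949 and 7662 CPM. KRT19 overlapped, at 1520 and 1666 CPM against 1535 and 1657 CPM. How many of all genes part in this way was not counted, and these differences were not tested. POU5F1 cells with DNMT3B, the DNA methyltransferase of the pluripotent epiblast (341 and 517 cells), had KRT8 at 2923 and 2440 CPM against 4743 and 4592 CPM without it, and KRT7 at 61.9 and 45.9 CPM against 155 and 131 CPM. The POU5F1 gate thus held cells of unequal keratin level. Those with DNMT3B were also more deeply counted, at medians of 44161 and 38598 UMIs against 34948 and 29599 UMIs, and the part of depth in this split was not tested. COL3A1 cells with MYL7 (181 and 148 cells) and without it had KRT8 at 3265 and 3134 CPM against 3688 and 3491 CPM, while KRT7 was at 29.6 and 30.4 CPM against 74.4 and 60.01 CPM. Cells in both the GABRP and TP63 gates had KRT8 at 7357 and 6560 CPM and KRT7 at 568 and 602 CPM, between the single gates in both libraries. Of those cells 4.27% and 8.17% had doublet scores among the highest, and the part of doublets in these levels was not tested.

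Over all cells, keratin levels changed in steps with the UMIs of GABRP, POU5F1 and VIM (vimentin, the intermediate filament of mesenchyme) in the thinned cell. KRT8 rose from 3885 and 3696 CPM in cells with no GABRP UMI to 11081 and 10234 CPM in cells with 11 or more, and KRT7 from 175 and 177 CPM to 998 and 1117 CPM. KRT7 dropped from 353 and 367 CPM in cells with no POU5F1 UMI to 62.6 and 53.0 CPM in cells with 6 to 10. KRT18 dropped from 4144 and 3981 CPM in cells with at most 10 VIM UMIs to 886 and 608 CPM in the 48 and 27 cells with 31 to 60, a steeper drop than that of KRT8, from 5205 and 4701 CPM to 2546 and 1875 CPM.

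**Figure D4:**
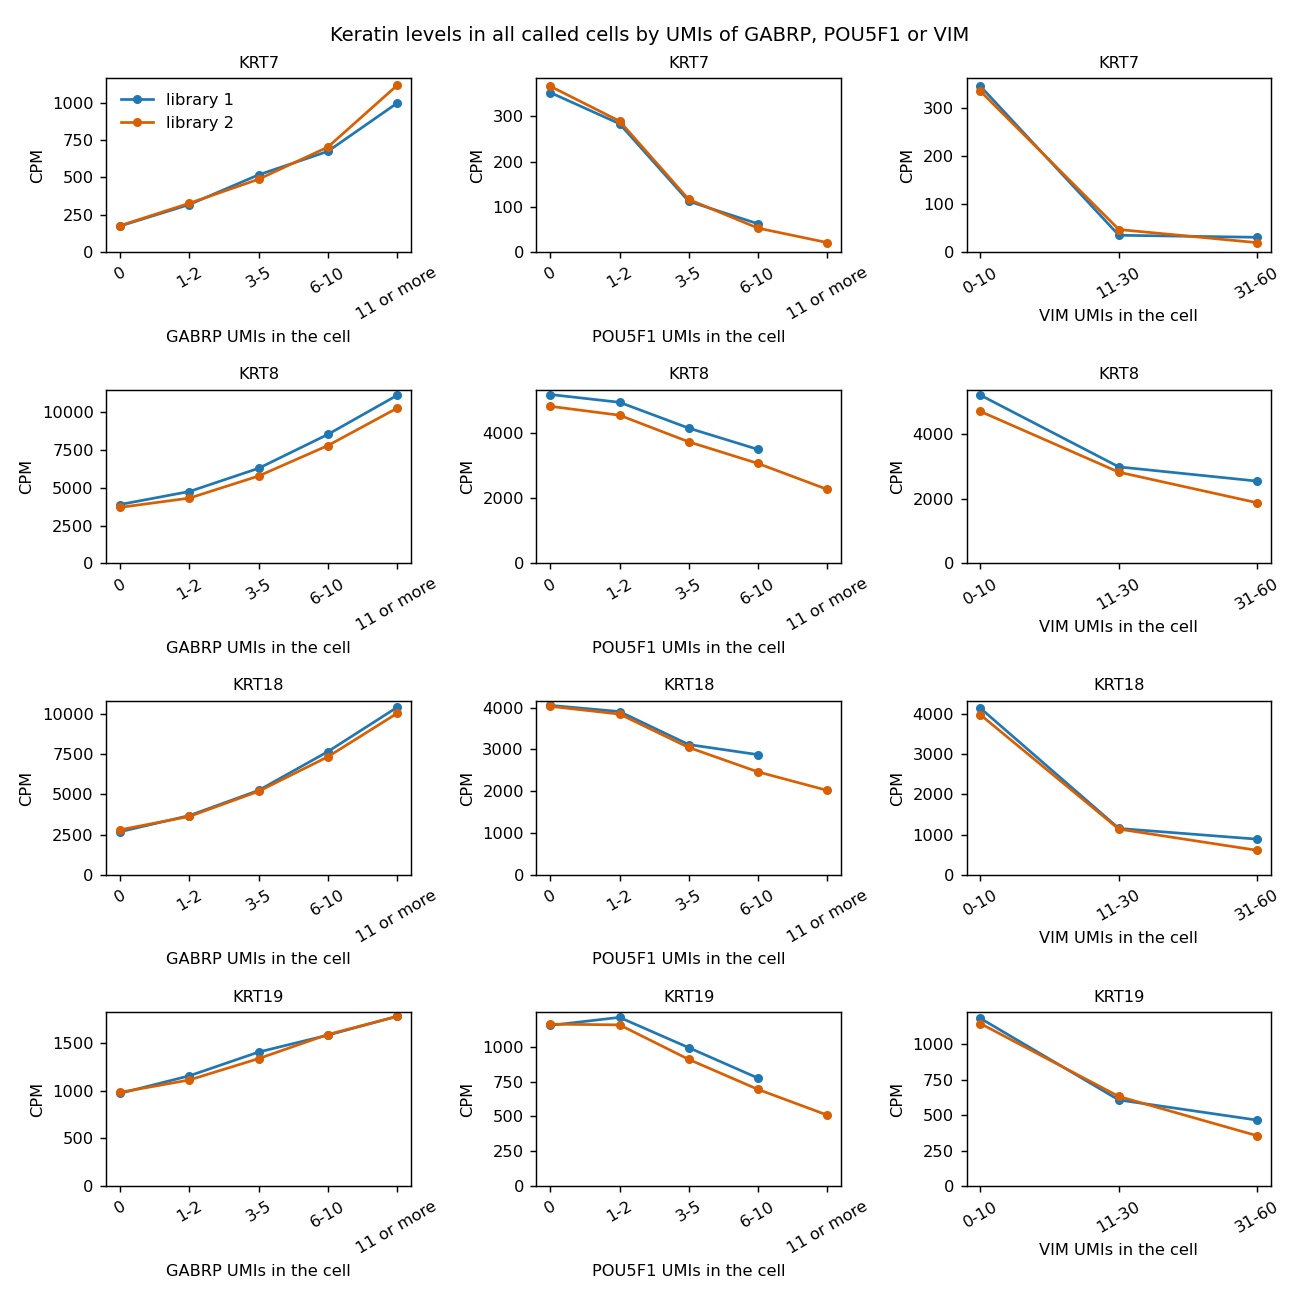
CPM of KRT7, KRT8, KRT18 and KRT19 (rows, y axes from 0) in all called cells thinned to 9500 UMIs, grouped by the UMIs of GABRP, POU5F1 or VIM in the cell (columns, x axes), with 1 line per library. Groups of under 20 cells are left out. All 4 keratins climb with GABRP and are lowest in the cells richest in POU5F1 or in VIM, and KRT7 shows the steepest change with POU5F1, from 353 and 367 CPM at 0 UMIs to 62.6 and 53.0 CPM at 6 to 10.

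From cell to cell, KRT8 and KRT18 followed each other in each gate. On thinned log counts their Pearson correlation was 0.92 and 0.93 over the 767 and 746 GABRP cells and 0.72 and 0.72 over the 572 and 487 COL3A1 cells, the gate with the most unequal ratio. KRT8 and ACTB, the actin gene taken as an abundant reference, correlated at 0.24 and 0.19 in GABRP cells, and KRT8 and VIM at -0.62 and -0.61 in CRABP1 cells, at -0.10 and -0.05 in COL3A1 cells and at 0.18 and 0.09 in GABRP cells. The cells of a gate share a library, and these values are descriptions.

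The keratins of basal and other stratified epithelia gave very few counts. KRT5 had 40 and 22 UMIs in all cells of libraries 1 and 2, 12 of the first 40 in a single cell. Its 9 and 7 UMIs in TP63 cells come to 0.237 and 0.178 CPM. KRT14, the partner of KRT5, had 4 and 7 UMIs in all cells, with 0 and 1 in TP63 cells, where a count of 0 in library 1 allows a level of up to 0.0791 CPM. TP63 itself, which drew the gate, was at 282 and 231 CPM in the same cells. KRT17, a keratin of skin appendages and injured epidermis, had 21 and 10 UMIs and KRT23, a type I keratin of some glandular epithelia, 14 and 11. All 4 were at 0 in empty droplets, which allows up to 1.83 and 1.28 CPM there. Loci with product names like those of KRT5 (LOC100621351) and KRT14 (LOC110255272) lie in the same clusters. In TP63 cells LOC100621351 was at 0 in both libraries and LOC110255272 at 0.580 and 0.558 CPM. Their sequences were not compared with those of KRT5 and KRT14. Whether reads that fit several loci were lost or split in counting was not tested.

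In pESCs the simple-epithelium keratins KRT8, KRT18 and KRT19 led. FPKM values follow in the order IVFP25, PA_4P7, PAP25. KRT8 was at 972, 732 and 1448 FPKM (mean 1051 ± 364, SD, n = 3), which ranked it 56, 82 and 23 among 29886 genes. KRT18 was at 398, 264 and 377 FPKM (346 ± 72.0, SD, n = 3) and KRT19 at 238, 205 and 274 FPKM (239 ± 34.4, SD, n = 3). FPKM is scaled by transcript length, so genes can be set side by side, and KRT8 was above KRT18 and KRT18 above KRT19 in each library. KRT7 was at 13.1, 7.33 and 10.7 FPKM and KRT80 at 1.01, 0.516 and 0.771 FPKM, well under the first 3 in every library. KRT17 reached 0.245, 0.122 and 0.0707 FPKM, KRT23 was above 0 only in PA_4P7 (0.0106 FPKM), and KRT5 and KRT14 were listed at 0 in all 3 libraries. Among the other keratin loci, the KRT14-like LOC110255272 was at 0.418, 0.194 and 0.140 FPKM. Of the 51 that remain, 31 were listed at 0 throughout and only KRT10 averaged at least 1 FPKM, with 4.95, 2.98 and 3.87. Read depth is not given for these libraries, and in bulk RNA a change in the number of cells of a kind and a change in RNA per cell cannot be told apart.

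**Figure D5:**
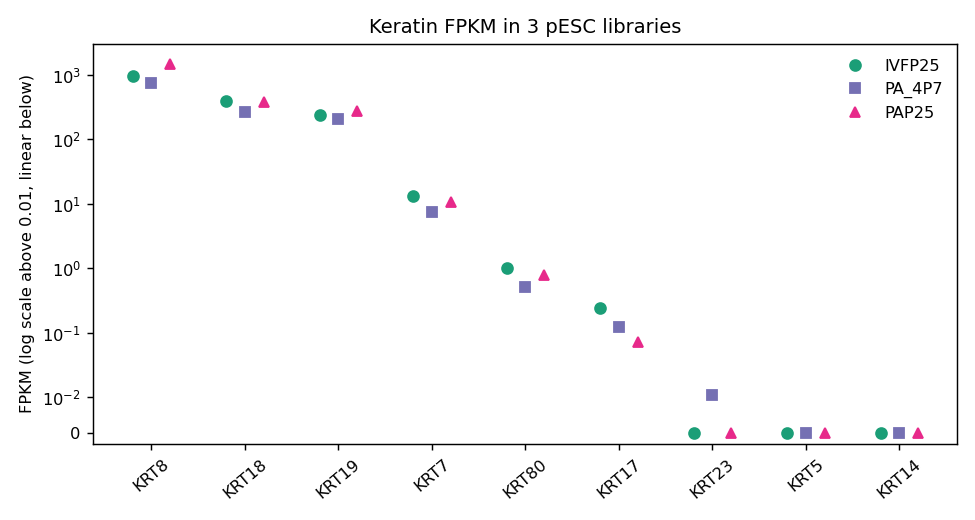
FPKM of the 9 keratins (x axis, ordered by mean) in the pESC libraries IVFP25, PA_4P7 and PAP25, on a y axis that is logarithmic above 0.01 and linear below. Each point is a library. KRT8, KRT18 and KRT19 lie above 200 FPKM in all 3 libraries, KRT7 between 7.33 and 13.1 FPKM, and KRT5 and KRT14 at 0.

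Other genes of the keratin system were read from fixed lists. Of 9 hemidesmosome genes, which anchor keratin to the basement membrane, 8 were higher in GABRP than in POU5F1 cells and none lower, beside 27.8% higher among all genes, with a median log2 fold change of 1.32 beside -0.02 over all genes. One of the 8, COL17A1 (edgeR adjusted p = 0.0461), was at 1.03 and 0.418 CPM against 0.170 and 0.453 CPM. Its direction thus differed between the libraries. LAMA3, a chain of laminin-332, was the highest at 2.96 (SE 0.31, edgeR adjusted p = 6.27e-06) with 7.18 and 7.67 CPM against 1.39 and 0.820 CPM, and the integrin ITGB4 the lowest at -0.36 (SE 0.17, edgeR adjusted p = 0.0931). ITGB4 was called with the gate at 4 times (-0.63) or 1 times (-0.46) the empty droplets, and had -0.62 without library 1 and -0.083 without library 2. Against TP63 cells 6 of the 9 were higher and none lower, beside 16.3% higher among all genes, from 1.70 for LAMB3 (SE 0.30, edgeR adjusted p = 0.00121) to -0.11 for DST (SE 0.06, edgeR adjusted p = 0.193). Of 13 tested desmosome genes, which join keratin filaments between cells, 8 were higher and 1 lower in GABRP than in POU5F1 cells (median 0.70), beside 27.8% and 27.3% of all genes. The ends were DSG3 at 2.00 (SE 0.49, edgeR adjusted p = 0.00435), though at 0.789 and 1.30 CPM only and with 2.85 without library 1 and 1.17 without library 2, and DSC3 at -0.97 (SE 0.20, edgeR adjusted p = 0.00133). Against TP63 cells 9 were higher and 1 lower, beside 16.3% and 14.9% of all genes, with DSG3 at 2.38 (SE 0.51, edgeR adjusted p = 0.00408) and PKP4 at -0.31 (SE 0.05, edgeR adjusted p = 0.000676). The call of DSG3 ended with the gate at 1 times the empty droplets (1.65) and with cells of several gates kept (1.16), and that of PKP4 with the latter (-0.16).

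Of 17 epithelial regulators, 11 were higher and 2 lower in GABRP than in POU5F1 cells (median 0.59), and 13 were lower and 3 higher in COL3A1 than in POU5F1 cells (median -1.51). TP63, on which a gate was drawn, is among the higher genes in both counts and was the highest in the first, so its part in them is no result. All genes gave 27.8% higher and 27.3% lower in the first comparison and 26.8% higher and 26.6% lower in the second. In GABRP against POU5F1 cells OVOL2 was the lowest at -0.71 (SE 0.12, edgeR adjusted p = 0.000317). Against TP63 cells ELF3, an epithelial ETS factor, was the highest at 2.34 (SE 0.17, edgeR adjusted p = 1.98e-06), with 53.3 and 67.9 CPM against 12.7 and 14.0 CPM. Among 6 tested linker and cornified layer genes, 2 were higher and 3 lower in GABRP than in POU5F1 cells, where 55.1% of all genes were called. SFN (14-3-3 sigma, which binds keratin) was at 406 and 449 CPM against 99.6 and 87.7 CPM (2.40, SE 0.17, edgeR adjusted p = 3.39e-07). TGM1, the transglutaminase of the cornified layer, had -1.67 (SE 0.48, edgeR adjusted p = 0.0106), with -0.97 without library 1 and -2.68 without library 2. Against TP63 cells SFN had 1.47 (SE 0.17, edgeR adjusted p = 5.01e-05) and TGM1 -0.43 (SE 0.52, edgeR adjusted p = 0.58).

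Of 11 intermediate filament genes other than keratins, 3 were higher and 4 lower in GABRP than in POU5F1 cells, shares near the 27.8% and 27.3% of all genes. NEFM, a neurofilament gene, was the highest at 2.99 (SE 0.35, edgeR adjusted p = 1.86e-05) and SYNM, synemin, the lowest at -2.22 (SE 0.17, edgeR adjusted p = 4.43e-07). Against TP63 cells NEFM had 2.51 (SE 0.34, edgeR adjusted p = 0.000177) and NES, nestin, -1.10 (SE 0.17, edgeR adjusted p = 0.00049). VIM was at 1128 and 1033 CPM in COL3A1 cells, 601 and 494 CPM in CRABP1 cells and 96.9 and 91.6 CPM in POU5F1 cells, so the gates with the least KRT18 had the most vimentin. Of 29 other genes with a keratin symbol only 8 passed the low-count filter, with 4 lower and none higher in GABRP than in POU5F1 cells, beside 27.3% and 27.8% of all genes. KRT10, a suprabasal keratin, was the only one above 10 CPM in both libraries of any gate, at 30.5 and 25.2 CPM in GABRP cells against 45.8 and 44.8 CPM in POU5F1 cells (-0.49, SE 0.08, edgeR adjusted p = 0.000195). KRT6A was at 0 in GABRP cells and at 0.284 and 0.311 CPM in POU5F1 cells, too few counts for a fold, and KRT25, the highest of the list in the fit, was at 0 in POU5F1 cells. KRT222 and KRT27, with KRT10 and KRT6A the 4 lower genes, were also near 0. KRT222 was at 0.0395 and 0 CPM in GABRP cells against 0.851 and 0.764 CPM, and KRT27 at 0 and 0.0465 CPM against 0.340 and 0.283 CPM. KRT27 passed the filter only with the CRABP1 sums, so its part in that count is no result. Of 23 loci with only a keratin product name, 5 were tested, with 1 higher and none lower in GABRP than in POU5F1 cells, beside the same shares of all genes. That locus was LOC100621639, a hair keratin Hb6-like gene on chromosome 5, at 2.68 and 2.19 CPM against 0.454 and 0.594 CPM (2.42, SE 0.29, edgeR adjusted p = 1.96e-05). It had 3.70 with the gate at 4 times the empty droplets and 1.95 with the gate at 1 times. The lowest was LOC110255272, a KRT14-like gene, at -1.04 (SE 0.50, edgeR adjusted p = 0.0949). It was called with the gate at 4 times the empty droplets (-1.61) and with cells of several gates kept (-1.44), and had -0.61 without library 1 and -1.64 without library 2. Against TP63 cells LOC100621639 had 0.94 (SE 0.25, edgeR adjusted p = 0.0148), a call that ended with the gate at 1 times the empty droplets (0.70) and with cells of several gates kept (0.59). LOC100737030, a keratin 42 locus, was the lowest there at -1.38 (SE 0.50, edgeR adjusted p = 0.0553) and was called with the library as a block (-1.39).

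Over the 12 sums of gates and cells of no gate, the genes whose log2(CPM + 1) followed KRT7 most closely among 8565 candidates were WNT6 (Pearson r = 0.99), PPT2 (0.98) and RHOBTB2 (0.98). For KRT8 they were CRIP2 (0.98), TNS3 (0.98) and ESYT2 (0.98), for KRT18 B4GALNT3 (0.99), SLC10A3 (0.99) and VAMP8 (0.99), and for KRT19 SLC25A3 (0.98), TNS3 (0.98) and MFSD7 (0.97). TNS3, a focal adhesion protein, stood in both the KRT8 and KRT19 lists. The sums come from 2 libraries, and these values describe likeness of level only.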

How the data were processed

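The listed keratins and the gene lists were chosen with earlier results of these data known. For blastoids, the authors counted UMIs with Cell Ranger 7.1.0 on susScr11, and what the authors deposited holds unnormalized counts for all barcodes. For pESCs, the authors used Trim Galore 0.6.4, HISAT2 2.2.1 and StringTie 2.2.1, and the deposited FPKM values, given per transcript without counts, were added per gene symbol here and not tested. Cells were called by the order-of-magnitude rule, which leaves out cells of low RNA content, and thinned to 9500 UMIs (seed 42) for shares and correlations. They held 254038630 and 264987746 UMIs. Counts were summed per library and gate (12 sums in 1 fit), filtered by filterByExpr, normalized by TMM and tested with edgeR 4.0.16 in R 4.3.3 (quasi-likelihood, Benjamini-Hochberg over 18427 genes, threshold 0.05). CPM in the text is over all UMIs of the sum, before TMM. Intervals and limits from a count of 0 (3 counts) cover counting error only. On simulated counts for GABRP against POU5F1 cells over 17829 genes, 178 of 200 changed genes were recovered with 7 false calls. The simulation used a single dispersion (0.00592) for all genes and left the genes not changed equal in all gates. In the data 55.1% of genes were called, so these counts do not describe recovery or false calls there. Scrublet (scanpy 1.11.5) marked 1 and 0 doublets by its own threshold, so doublets were kept in the main analysis, and the 434 and 535 highest scores were left out as an alternative. The sums of 1 library share its preparation, which pairs them by design, and their deviations from the gate means correlated at 0.063 to 0.34 between gates. Named genes were the keratins, the highest and lowest member of each list in GABRP against POU5F1 and against TP63 cells, and the 3 most like each abundant keratin. Other keratins named for their level, and KRT10 against POU5F1, were picked after their values were seen.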

Additional observations from a re-analysis of the deposited data

How the results depend on the processing

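The 25 log2 fold changes of keratins were recomputed under 10 alternatives with a test and without each library in turn, 300 values. Of the 250 with a test 239 kept direction and call, and of the 50 without a library, which have no test, 48 kept direction. The cause of the others was not tested. All values that turned direction were in COL3A1 against POU5F1 cells: KRT7 (0.020 with the gate at 4 times the empty droplets, 0.58 with cells of several gates kept), KRT8 (-0.010 with the gate at 1 times), KRT80 (0.15 with cells of several gates kept), and, without library 2, KRT8 (-0.012) and KRT19 (-0.010), whose highest values without a library were 0.12 and 0.31. Gained calls there were KRT8 with cells of several gates kept (0.26, edgeR adjusted p = 0.0235, up to 0.893 over the alternatives) and KRT19 with the gate at 4 times (0.29, edgeR adjusted p = 0.0257, up to 0.788). That alternative with cells of several gates kept, chosen after seeing the data, also cut the genes called between GABRP and TP63 cells to 2180. The cells of both gates are then in both sums, which lowers differences by construction. Of 27 other named results, 2 turned direction without library 1, KRT10 (-0.057, against 0.12 without library 2) and TGM1 (0.18, against -1.36) in GABRP against TP63 cells, neither of them called.

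The library as a replicate block, which pairs the sums, called 11203, 10634, 8943, 10717 and 7400 genes in place of 10145, 9252, 8049, 9832 and 5750 for GABRP, TP63, CRABP1 and COL3A1 against POU5F1 and GABRP against TP63 cells, and changed no call of the 5 tested keratins and, of the other named genes, that of LOC100737030. Empty droplets of more than 100 and up to 500 UMIs had lower mean keratin levels than those of 10 to 100 UMIs, with KRT8 at 4959 CPM, KRT18 at 3650 CPM, KRT19 at 1086 CPM, KRT7 at 222 CPM and KRT80 at 5.47 CPM. KRT5, KRT14, KRT17 and KRT23 had few counts, and why was not tested.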

Other observations

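A few other keratins, chosen here after their values were seen, were counted in CRABP1 cells. Against POU5F1 cells 3 of 8 tested keratin symbols, KRT10, KRT25 and KRT27, and 3 of 5 tested product loci were higher there. None was lower, and among all genes 20.7% were higher and 23.0% lower. KRT25 and KRT27 passed the low-count filter only with the CRABP1 sums, so their part in this count is no result. LOC110255272 (chr12:21037349-21041743, plus), whose RefSeq product is a KRT14-like type I keratin, was at 12.6 and 26.1 CPM in CRABP1 cells against 1.16 and 1.41 CPM in POU5F1 cells (log2 fold change 3.81, SE 0.37, edgeR adjusted p = 7.51e-06), from 78 UMIs in 28 cells and 225 UMIs in 51 cells. KRT25, a keratin of the inner root sheath of hair, was at 4.19 and 46.5 CPM in CRABP1 cells and at 0 in POU5F1 cells. Its 26 and 401 UMIs sat in 6 and 15 cells, with 96.2% and 97.3% of them in 5 cells of each library, and 188 UMIs in a single cell of library 2. KRT27, also of the inner root sheath, was at 2.90 and 2.44 CPM in CRABP1 cells, from 18 and 21 UMIs in 8 and 13 cells. In POU5F1 cells it was at 0.340 and 0.283 CPM (log2 fold change 2.96 for CRABP1 against POU5F1 cells, SE 0.48). The test cannot decide this difference, because the high CRABP1 sums themselves brought KRT27 through the filter, and its p-value is left out. LOC106506651, annotated as a type II keratin 71, had 25 and 27 UMIs in CRABP1 cells, all of them in 3 cells of each library, and its log2 fold change of 4.81 (SE 0.50, edgeR adjusted p = 1.2e-05) lost its call with the gate at 4 times the empty droplets (0.88). Over all cells LOC106506651 had 283 and 189 UMIs, 89 of the former in a single cell, so most lay outside CRABP1 cells. In cells of no gate it was at 2.31 and 1.24 CPM. Other keratins of the inner root sheath were at or near 0 in CRABP1 cells, with KRT26 and the keratin 72 and 73 loci (LOC733618 and LOC100511079) at 0 in both libraries, KRT28 at 0.161 and 0 CPM and KRT74 at 0.161 and 0.232 CPM. LOC100737030, also among the 3 higher product loci, had 26 and 14 UMIs in CRABP1 cells, 84.6% and 78.6% of them in 5 cells of each library. For LOC110255272 that share was 55.1% and 50.7%. The sums of KRT25, LOC106506651 and LOC100737030 describe a few cells of each library, and that of LOC110255272 a minority, and not the CRABP1 cells as a whole.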
